A study of Mus musculus with 6 samples.

Results

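Queuine is a base that animals obtain from food and gut bacteria and place in tRNA in exchange for guanine, at the wobble base of 4 tRNAs, those that carry Asn, Asp, His and Tyr, where it becomes queuosine. The transcripts described here encode the proteins that import the base, recover it from used nucleotides, insert it and decorate it, and Dnmt2, a tRNA methyltransferase that recognises the same tRNA for Asp. The 7 genes are Slc35f2, Qng1, Qtrt1, Qtrt2, Gtdc1, B3gntl1 and Trdmt1 (the gene of Dnmt2). They were chosen by symbol through their Ensembl identifiers, and all 7 were found among the 57132 genes of the table.

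The cells were mouse bone marrow-derived dendritic cells, cultured from female C57BL/6 mice of 6 to 8 weeks. The medium held 10% serum that had been dialyzed, and 15 ng/mL of GM-CSF, a cytokine that drives myeloid growth. The 100Q cultures received 100 nM queuine from plating on and with each feed, and the 0Q cultures received the same medium without queuine. Dialysis removes small molecules from serum, and both groups had it. Cells were fed on days 2 and 4 and RNA was taken on day 5, with 3 libraries in each group. The labels call the cultures triplicates and do not state whether separate animals were used, so each p-value rests on differences between cultures that may be technical.

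Depth lay between 4484793 and 19386617 counts in the 100Q libraries and between 3675931 and 6755398 counts in the 0Q libraries. Values below are CPM (each count over the TMM-scaled total of the tested genes in its library), and 3 counts corresponded to between 0.159 CPM in the deepest library (100Q replicate 3) and 0.833 CPM in the shallowest (0Q replicate 3). Of 10 dendritic cell markers, 8 had at least 3 counts in every library, and the 10 summed to 1052 to 1180 CPM in 100Q and 1005 to 1155 CPM in 0Q. The cultures also held myeloid RNA of other kinds: 8 neutrophil genes summed to 14077 to 17157 CPM in 100Q and 16879 to 19798 CPM in 0Q, and 7 macrophage and monocyte genes to 18028 to 21822 CPM in 100Q and 18070 to 20022 CPM in 0Q. The 4 mast cell and basophil genes summed to 198 to 231 CPM in 100Q and 211 to 324 CPM in 0Q, and 3 erythroid genes to 37.2 to 54.5 CPM in 100Q and 39.8 to 43.4 CPM in 0Q. The 3 B cell genes summed to 3.80 to 9.90 CPM in 100Q and 6.67 to 10.8 CPM in 0Q, and 3 T cell genes to 0.19 to 4.21 CPM in 100Q and 2.22 to 5.48 CPM in 0Q, with Cd3e at 0 in all 6 libraries. The log2 fold changes of 100Q over 0Q (from the edgeR fit used below) were below 0 for all 8 neutrophil genes, with a median of -0.23, and for all 4 mast cell and basophil genes, with a median of -0.36. They were above 0 for 8 of the 10 dendritic cell genes, with a median of 0.31, and for 4 of the 7 macrophage and monocyte genes, with a median of 0.05. No gene of these lists passed an adjusted p of 0.05. The groups did not overlap in 3 of the 8 neutrophil and 4 of the 10 dendritic cell genes, where 8.24% of all tested genes had no overlap, and 3 neutrophil genes and 1 dendritic cell gene had an unadjusted p under 0.05. In such bulk cultures fewer cells of a type and less RNA per cell cannot be told apart, and the part of this mixture in the values below was not tested.

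Transcripts of the queuosine pathway averaged between 0 CPM (Slc35f2) and 8.86 CPM (Trdmt1) over the 6 libraries. Of the 7 genes, 6 had enough counts to be tested and Slc35f2 had none. By edgeR's quasi-likelihood test 0 of the 6 passed an adjusted p of 0.05, and over all 10554 genes tested 0 passed, or 0%. Of the 6, 3 had estimates above 0 (Trdmt1, Qng1 and Qtrt1) and 3 below (Gtdc1, Qtrt2 and B3gntl1), with a median log2 fold change of 0.10, against 5277 genes above and 5277 below 0 and a median of 0.00 over all tested genes. Every one of the 6 had an adjusted p of 0.999. At an unadjusted p under 0.05 there were 0 of the 6 and 309 of all genes, or 2.93%, and DESeq2 and limma-voom also called 0 genes at an adjusted p of 0.05. The 6 summed to 37.4, 32.1 and 33.8 CPM in 100Q replicates 1 to 3. In 0Q replicates 1 to 3 they summed to 36.0, 34.9 and 32.9 CPM. Single genes differed in range: over the 6 libraries Qtrt1 lay between 1.32 and 8.36 CPM and Qng1 between 4.72 and 7.79 CPM. A sum can be steadier than its parts through averaging, and sums of other genes were not compared.

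**Figure D1:**
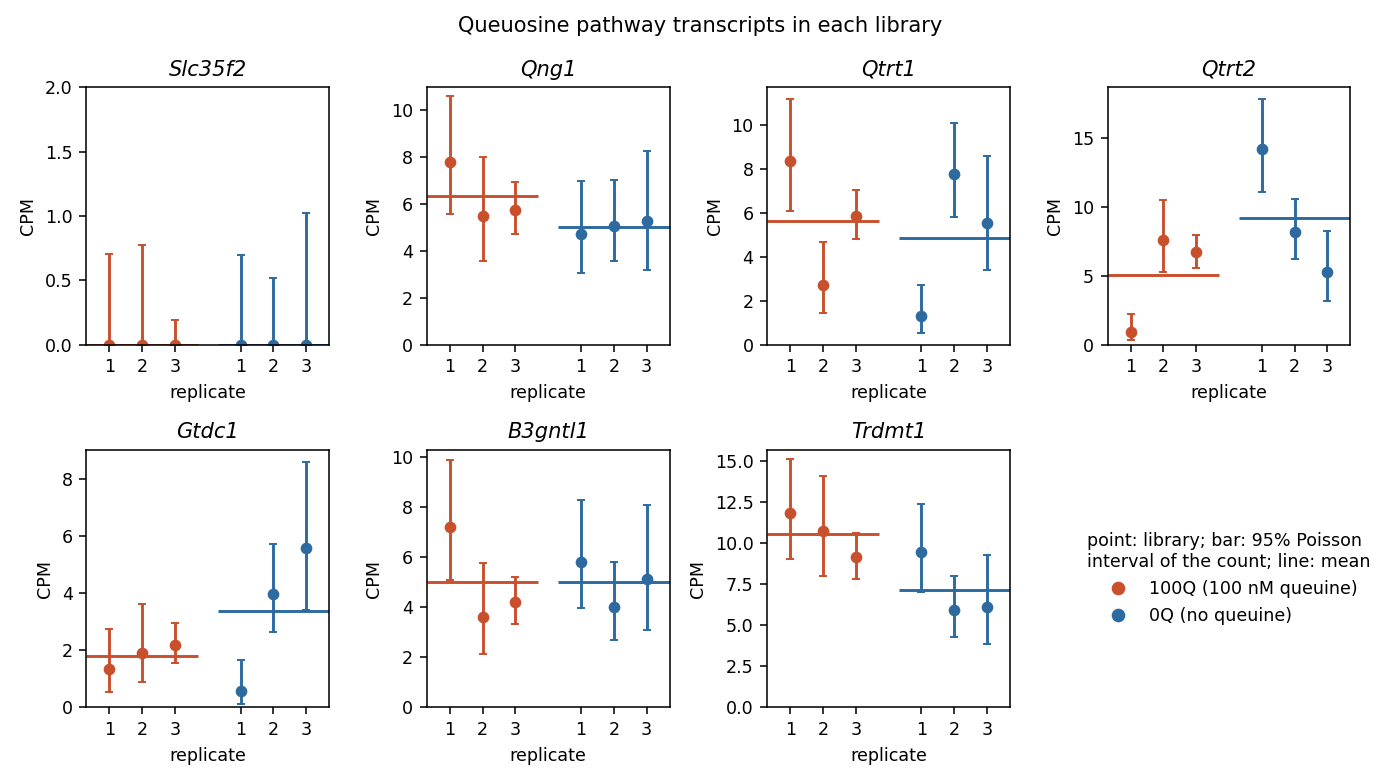
CPM of the 7 genes in each library of 100Q (left in each panel) and 0Q (right); points are libraries, bars are 95% Poisson intervals of the count and horizontal lines are group means. Qng1 lay close together in 0Q between 4.72 and 5.28 CPM, Qtrt1 and Qtrt2 scattered in both groups, and Slc35f2 was at 0 throughout.

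Slc35f2 is a membrane protein of the SLC35 family, identified in human cells as a transporter of queuine. Its gene (ENSMUSG00000042195, chr9:53678606-53725455 on GRCm39, plus strand) had 0 counts in each of the 3 libraries of 100Q and each of the 3 of 0Q. Counting error allows up to 0.104 CPM over the pooled 100Q libraries, up to 0.188 CPM over the pooled 0Q libraries and up to 0.0668 CPM over all 6, at 3 counts allowed. These limits, and the intervals of counts given below, cover counting error only, since reads without molecular identifiers are not independent molecules. No fold change can be given. Of its 5 relatives in the table, Slc35f1, Slc35f3 and Slc35f4 were also at 0 in all 6 libraries. Slc35f6 averaged 53.1 ± 13.4 CPM in the 100Q libraries against 45.4 ± 12.4 CPM in the 0Q libraries (SD, n = 3 each), and Slc35f5 averaged 10.7 ± 2.49 CPM in 100Q against 6.73 ± 2.95 CPM in 0Q. Neither passed the test, with log2 fold changes of 0.21 (SE 0.25) and 0.67 (SE 0.46) and an edgeR adjusted p of 0.999 for both.

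The start of Slc35f2 is shown because it is the gene without reads. Windows of 300 bases, from 250 before an annotated start to 50 from it on, were read from GRCm39, and CG dinucleotides, which read the same on both strands, are in capitals. The window of the canonical start of Slc35f2 (chr9:53678356-53678655, plus strand) held 5 CG, and that of the next annotated start (chr9:53678747-53679046), used by transcripts marked for nonsense-mediated decay, held 22. The canonical start of Qtrt1, a transcribed gene on the same chromosome, is given beside them (chr9:21322883-21323182, plus strand) and held 17.
Slc35f2 canonical start: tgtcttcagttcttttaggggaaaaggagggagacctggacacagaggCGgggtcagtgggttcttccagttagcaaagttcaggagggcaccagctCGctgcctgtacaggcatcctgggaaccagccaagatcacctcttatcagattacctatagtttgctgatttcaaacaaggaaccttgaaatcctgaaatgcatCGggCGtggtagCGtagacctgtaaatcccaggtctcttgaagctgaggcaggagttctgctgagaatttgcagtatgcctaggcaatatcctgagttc
Slc35f2 next start: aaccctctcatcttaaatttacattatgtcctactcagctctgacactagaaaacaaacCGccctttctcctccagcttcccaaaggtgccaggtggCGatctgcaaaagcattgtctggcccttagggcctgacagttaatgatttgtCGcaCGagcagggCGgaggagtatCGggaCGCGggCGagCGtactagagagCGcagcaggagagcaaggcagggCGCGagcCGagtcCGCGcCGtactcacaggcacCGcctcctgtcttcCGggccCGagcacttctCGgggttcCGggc
Qtrt1 canonical start: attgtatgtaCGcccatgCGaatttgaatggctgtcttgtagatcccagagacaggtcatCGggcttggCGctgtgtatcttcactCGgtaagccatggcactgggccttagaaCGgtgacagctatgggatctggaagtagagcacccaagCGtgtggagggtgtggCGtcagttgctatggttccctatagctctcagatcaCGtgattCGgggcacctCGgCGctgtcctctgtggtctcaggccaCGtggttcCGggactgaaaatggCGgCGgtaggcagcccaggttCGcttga

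Across 21770 protein-coding genes the median canonical window held 11 CG, and 29.8% of them had fewer than the 5 of Slc35f2. The canonical window of Qtrt2 also held 5, and that of another protein-coding transcript of Qtrt2, which starts farther upstream, held 17. The canonical windows of Gtdc1, Qng1, Trdmt1 and B3gntl1 held 39, 24, 14 and 11 CG. Which of the starts were in use was not measured.

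Qng1 encodes the nucleosidase that, as shown for the human enzyme, frees queuine from the nucleotide left by tRNA breakdown, so that the base can be used again. The gene (ENSMUSG00000021550, chr13:58526321-58533056, minus strand) had 41, 26 and 109 counts in 100Q replicates 1 to 3, which are 7.79, 5.48 and 5.76 CPM, and 25, 36 and 19 counts in 0Q replicates 1 to 3, which are 4.72, 5.08 and 5.28 CPM. It was the only one of the 6 tested genes whose groups did not overlap, with every 100Q library above every 0Q library. Among all tested genes 4.41% had 100Q wholly above 0Q, and 8.24% had no overlap in either direction. The nearest libraries were 100Q replicate 2 and 0Q replicate 3, whose 95% Poisson intervals of 3.58 to 8.02 CPM and 3.18 to 8.24 CPM covered each other's values. The mean was 6.34 ± 1.26 CPM in the 100Q libraries against 5.03 ± 0.28 CPM in the 0Q libraries (SD, n = 3 each), which gave a log2 fold change of 0.33, with an SE of 0.51 and a 95% interval from -0.73 to 1.40 (adjusted p = 0.999 by edgeR). The interval spans 0.602-fold to 2.64-fold of the 0Q level, and the estimate was 0.16 without 100Q replicate 1.

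Qtrt1 and Qtrt2 encode the subunits of the tRNA-guanine transglycosylase that exchanges guanine for queuine. Qtrt1 carries the catalytic site and Qtrt2 is its related partner. Qtrt1 (ENSMUSG00000002825, chr9:21323111-21331575, plus strand) had 44, 13 and 111 counts in 100Q replicates 1 to 3 and 7, 55 and 20 counts in 0Q replicates 1 to 3. In CPM these were 8.36, 2.74 and 5.87 in 100Q and 1.32, 7.76 and 5.56 in 0Q. The lowest library was 0Q replicate 1 and the highest 100Q replicate 1, and the groups overlapped. The log2 fold change was 0.21, with an SE of 0.64 and a 95% interval from -1.14 to 1.57 (adjusted p = 0.999 by edgeR), and its sign rested on those libraries: it was -0.24 without 0Q replicate 1 and -0.16 without 100Q replicate 1, and 0.75 without 0Q replicate 2.

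Qtrt2 (ENSMUSG00000022704, chr16:43681490-43747172, minus strand) had the opposite extremes. Its counts were 5, 36 and 127 in 100Q replicates 1 to 3 and 75, 58 and 19 in 0Q replicates 1 to 3, or 0.951, 7.58 and 6.71 CPM in 100Q, against 14.2, 8.18 and 5.28 CPM in 0Q. The lowest library was 100Q replicate 1 and the highest 0Q replicate 1, and the groups overlapped. The log2 fold change was -0.85, with an SE of 0.61 and a 95% interval from -2.13 to 0.44 (adjusted p = 0.999 by edgeR). Without 100Q replicate 1 it was -0.39, and without 100Q replicate 2 it was -1.20.

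The balance of the 2 subunit transcripts varied between libraries of the same group. Shares are of counts and are not corrected for length, and merged exons span 2432 bases in Qtrt1 and 5470 in Qtrt2. Equal counts are therefore not equal levels per length. Qtrt1 made up 89.8% of the counts of both subunits in 100Q replicate 1 (44 of 49, exact 95% binomial interval 77.8% to 96.6%), 26.5% in 100Q replicate 2 (13 of 49, interval 14.9% to 41.1%) and 46.6% in 100Q replicate 3 (111 of 238, interval 40.2% to 53.2%). In 0Q it made up 8.54% in replicate 1 (7 of 82, interval 3.50% to 16.8%), 48.7% in replicate 2 (55 of 113, interval 39.2% to 58.3%) and 51.3% in replicate 3 (20 of 39, interval 34.8% to 67.6%). The interval of replicate 1 lay outside those of replicates 2 and 3 in both groups, above them in 100Q and below them in 0Q. The other 4 libraries ranged from 26.5% to 51.3%. These intervals hold counting error only, and most genes of like count also varied between cultures by more than that, as given below with the scatter of each gene. The 2 subunits together had 9.32, 10.3 and 12.6 CPM in 100Q replicates 1 to 3 and 15.5, 15.9 and 10.8 CPM in 0Q replicates 1 to 3, and these groups overlapped. All 12 estimates of the subunits were whole to within 0.001. Gm16853, a noncoding gene on the opposite strand that covers 25.8% of Qtrt1's exon bases, had at most 3.52 counts in a library.

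**Figure D2:**
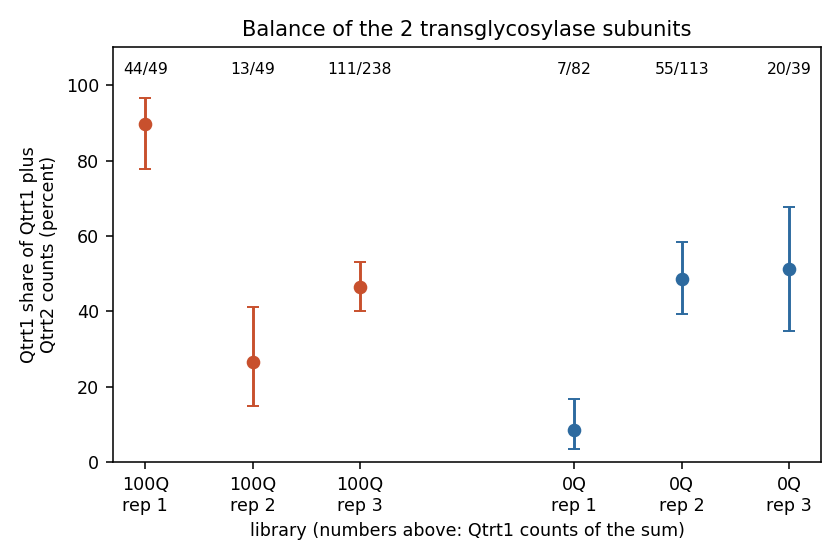
Share of Qtrt1 in the counts of Qtrt1 plus Qtrt2 (percent, not corrected for length) in each library of 100Q (left) and 0Q (right). Bars are exact 95% binomial intervals and cover counting error only. 100Q replicate 1 stands at 89.8% and 0Q replicate 1 at 8.54%, with the other libraries between 26.5% and 51.3%.

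Gtdc1 and B3gntl1 encode glycosyltransferases. In human cells they are the enzymes that add mannose to queuosine in the tRNA for Asp and galactose to queuosine in the tRNA for Tyr. Gtdc1 (ENSMUSG00000036890, chr2:44454316-44817764, minus strand) had the fewest counts of the tested genes of the pathway, with 7, 9.01 and 41.03 in 100Q replicates 1 to 3 and 3, 28 and 20 in 0Q replicates 1 to 3. These were 1.33, 1.90 and 2.17 CPM in 100Q, against 0.567, 3.95 and 5.56 CPM in 0Q. The 3 libraries of 100Q lay between 0Q replicate 1 and the other two of 0Q. The log2 fold change was -0.86, with an SE of 0.87 and a 95% interval from -2.70 to 0.97 (adjusted p = 0.999 by edgeR), and it was -1.37 when 0Q replicate 1 was left out, -0.33 when 0Q replicate 3 was and -0.25 with limma-voom on all libraries.

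B3gntl1 (ENSMUSG00000046605, chr11:121498254-121564313, minus strand) had 37.88, 17.16 and 79.2 estimated counts in 100Q replicates 1 to 3 and 30.84, 28.47 and 18.52 in 0Q replicates 1 to 3, or 7.20, 3.61 and 4.19 CPM in 100Q, against 5.82, 4.01 and 5.14 CPM in 0Q. The mean was 5.00 ± 1.93 CPM in the 100Q libraries against 4.99 ± 0.91 CPM in the 0Q libraries (SD, n = 3 each), which gave a log2 fold change of -0.01, with an SE of 0.56 and a 95% interval from -1.19 to 1.17 (adjusted p = 0.999 by edgeR), whose sign changed with several settings. The equal means do not show equal levels, since the interval spans 0.438-fold to 2.25-fold. B3gntl1 was the only one of the 7 with estimates that were not whole in all 6 libraries. On the opposite strand Tbcd, a tubulin-folding cofactor, covers 22.8% of its exon bases. The estimates of both genes added up to 124, 50 and 199 in 100Q replicates 1 to 3 and to 132, 95 and 60 in 0Q replicates 1 to 3, each whole to within 0.01, so reads had been divided between these 2 genes. B3gntl1 received 30.5%, 34.3% and 39.8% of the sum in 100Q and 23.4%, 30.0% and 30.9% in 0Q. Its level is uncertain for this reason.

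Trdmt1 encodes Dnmt2, which methylates a cytosine in the anticodon loop of the tRNA for Asp, and queuosine in that tRNA stimulates the enzyme in fission yeast. The gene (ENSMUSG00000026723, chr2:13513825-13549693, minus strand) had the highest CPM of the 7 over all 6 libraries, at 8.86, and in 100Q, while in 0Q Qtrt2 was higher, at a mean of 9.21 CPM. Its counts were 62, 51 and 173 in 100Q replicates 1 to 3 and 50, 42 and 22 in 0Q replicates 1 to 3, or 11.8, 10.7 and 9.14 CPM in 100Q, against 9.44, 5.92 and 6.11 CPM in 0Q. The groups overlapped at 100Q replicate 3 and 0Q replicate 1. The mean was 10.6 ± 1.33 CPM in the 100Q libraries against 7.16 ± 1.98 CPM in the 0Q libraries (SD, n = 3 each), which gave a log2 fold change of 0.55, with an SE of 0.42 and a 95% interval from -0.34 to 1.45 (adjusted p = 0.999 by edgeR), the narrowest interval of the 6. The value stayed between 0.41 and 0.81 with any 1 library left out.

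The DNA methyltransferases are relatives of Dnmt2 that act on DNA, with Dnmt3l as an inactive partner. All 4 were tested, 2 had estimates below 0 and 2 above, and 0 passed, with a median log2 fold change of -0.02. Dnmt3a, a de novo enzyme, averaged 118 ± 12.1 CPM in the 100Q libraries against 99.8 ± 7.40 CPM in the 0Q libraries (SD, n = 3 each), which gave a log2 fold change of 0.24 (SE 0.16). Dnmt1, the maintenance enzyme, averaged 27.1 ± 4.80 CPM in the 100Q libraries against 36.6 ± 10.3 CPM in the 0Q libraries, which gave a log2 fold change of -0.43 (SE 0.28). Both had an edgeR adjusted p of 0.999.

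Other tRNA cytosine methyltransferases, with the oxidase Alkbh1, formed a list of 4, of which 0 passed, with a median of 0.18. Nsun2, which methylates many tRNAs, had 41.4, 42.6 and 31.2 CPM in 100Q replicates 1 to 3 and 21.2, 30.5 and 21.7 CPM in 0Q replicates 1 to 3, with no overlap. The nearest libraries were 100Q replicate 3 and 0Q replicate 2. Nsun2 was the 1 gene of the 4 without overlap, where 8.24% of all tested genes had none. The log2 fold change was 0.64, with an SE of 0.27 and a 95% interval from 0.08 to 1.20, at an unadjusted p of 0.0274 and an adjusted p of 0.999 by edgeR, and 2.93% of all genes had an unadjusted p under 0.05. Nsun6, which methylates tRNAs at the 3′ end of the acceptor stem, averaged 3.40 ± 1.84 CPM in the 100Q libraries against 8.22 ± 4.33 CPM in the 0Q libraries (SD, n = 3 each), which gave a log2 fold change of -1.23 (SE 0.62, edgeR adjusted p = 0.999). The list's median was -0.07 without 100Q replicate 1.

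For each of the 4 amino acids a cytosolic and a mitochondrial synthetase charge the tRNA, and 8 genes encode them. All 8 were tested, 6 had estimates below 0 and 2 above, and 0 passed, with a median log2 fold change of -0.08. Nars1, the cytosolic synthetase for Asn, averaged 87.0 ± 9.65 CPM in the 100Q libraries against 90.0 ± 7.43 CPM in the 0Q libraries (SD, n = 3 each), which gave a log2 fold change of -0.05 (SE 0.17). Nars2, its mitochondrial counterpart, had 2.47, 3.58 and 3.22 CPM in 100Q replicates 1 to 3. In 0Q replicates 1 to 3 it had 11.1, 6.21 and 3.89 CPM, and the log2 fold change was -1.20 (SE 0.58). Nars2 was the 1 gene of the 8 without overlap, where 8.24% of all tested genes had none. Its nearest libraries were 100Q replicate 2, at 3.58 CPM, and 0Q replicate 3, at 3.89 CPM. Yars2, the mitochondrial synthetase for Tyr, differed by -0.65 on the log2 scale (SE 0.50). The adjusted p by edgeR was 0.999 for each of these 3 genes.

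**Figure D3:**
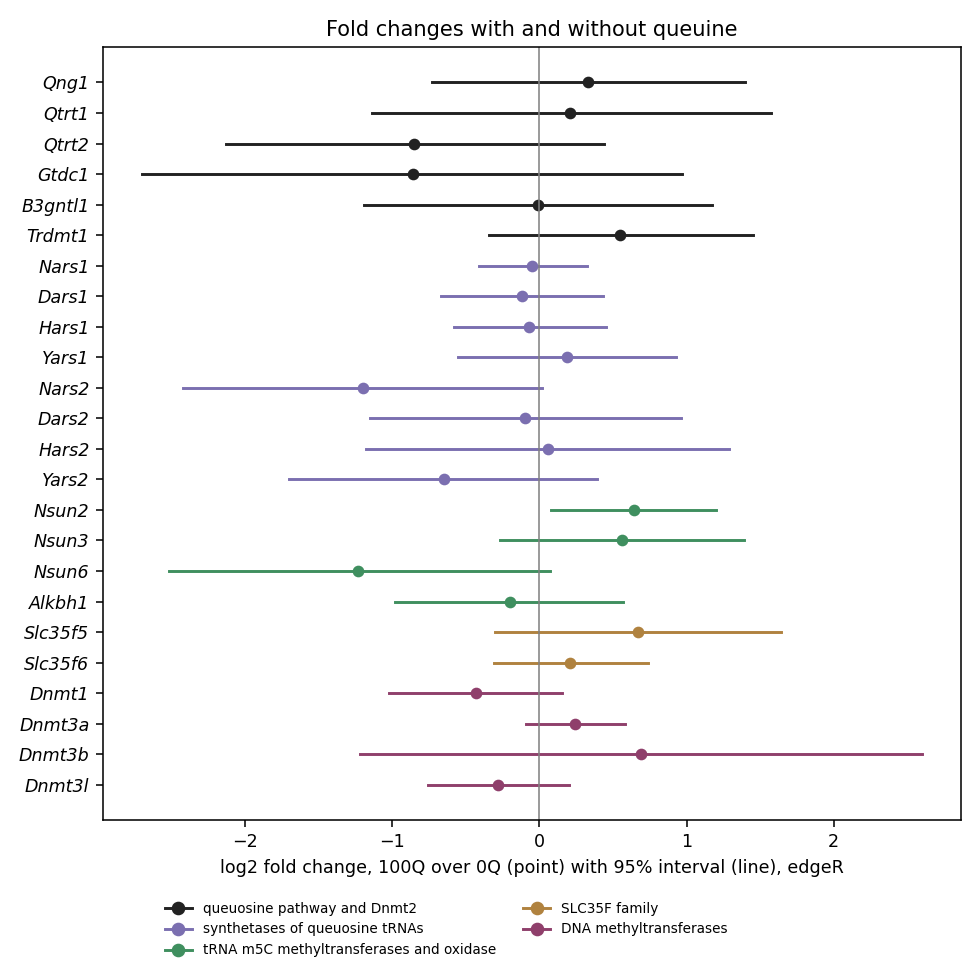
Log2 fold change of 100Q over 0Q (points) with 95% intervals (lines) from edgeR for the 6 tested genes of the pathway and the 18 tested genes of 4 related lists. The line of every gene of the pathway crosses 0, from Gtdc1 at -0.86 to Trdmt1 at 0.55, and Nsun2 at 0.64 has the one interval that does not.

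Levels were set against each other per kilobase of exon. Averaged over the 6 libraries they were 2.17 for Qtrt1, 2.02 for Trdmt1, 1.31 for Qtrt2, 1.30 for Qng1, 0.532 for B3gntl1 and 0.291 for Gtdc1, in CPM per kilobase of merged exons, with Slc35f2 at 0. The ranges over libraries overlapped between neighbours in this order, except between Qng1 (1.08 to 1.78) and B3gntl1 (0.385 to 0.767) and between Gtdc1 (0.0639 to 0.627) and Slc35f2. Among the first 4 the order differed between groups: the 100Q means were 2.40 for Trdmt1, 2.33 for Qtrt1, 1.45 for Qng1 and 0.929 for Qtrt2, and the 0Q means were 2.01 for Qtrt1, 1.68 for Qtrt2, 1.63 for Trdmt1 and 1.15 for Qng1. With the longest transcript as length the order was the same, but B3gntl1 (0.820 to 1.63) then overlapped Qng1. Per kilobase of merged exons, 48.5% of tested protein-coding genes lay below Qtrt1, 46.8% below Trdmt1, 34.8% below Qtrt2, 34.6% below Qng1, 12.8% below B3gntl1 and 3.97% below Gtdc1.

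The genes differed in how far libraries of the same group scattered. Within a group, the variance of the counts over that expected from counting alone was 13.3 for Qtrt2 in 100Q and 10.1 in 0Q, and 6.82 in 100Q and 12.3 in 0Q for Qtrt1. Genes with total counts within 1.5-fold of theirs had medians of 5.23 in 100Q and 5.39 in 0Q for Qtrt2, and of 4.88 in 100Q and 5.16 in 0Q for Qtrt1. Of those genes, 81.7% scattered less than Qtrt2 in 100Q and 72.1% in 0Q, and 60.9% scattered less than Qtrt1 in 100Q and 80.2% in 0Q. Qng1 was at 1.57 in 100Q, where 20.7% of genes of like count scattered less, and at 0.073 in 0Q, where 0.995% did. Trdmt1, at 1.67 in 100Q and 2.97 in 0Q, was also below the medians of 5.58 in both groups. Gtdc1 was at 0.74 in 100Q and 9.51 in 0Q, and B3gntl1 at 4.68 in 100Q and 1.06 in 0Q. With 3 libraries in a group these ratios are themselves imprecise.

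**Figure D4:**
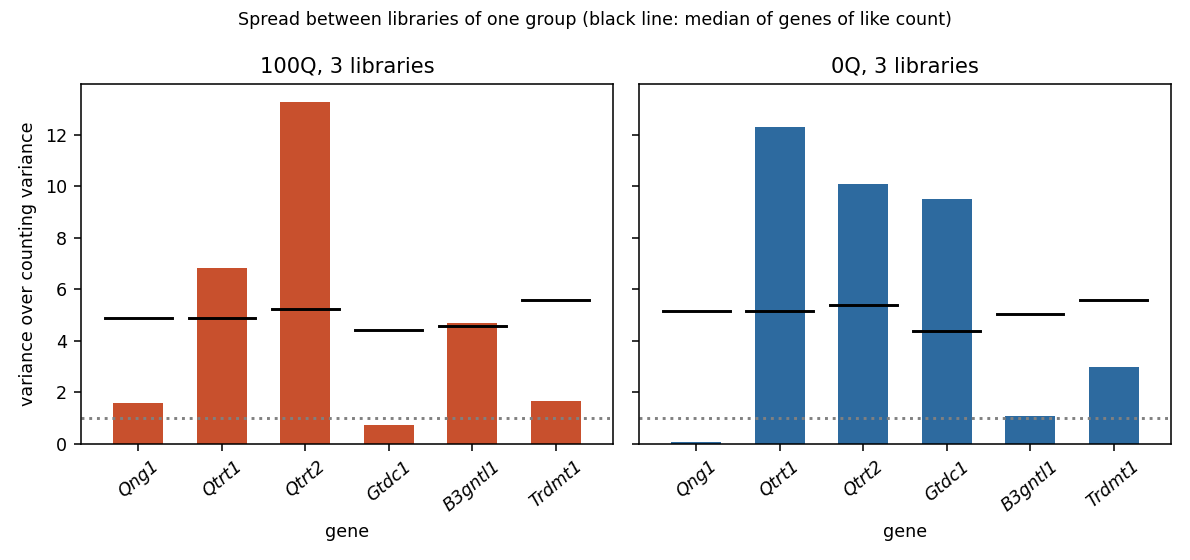
Variance between the 3 libraries of a group over the variance from counting alone, in 100Q (left panel) and 0Q (right panel), for the 6 tested genes; bars are the genes, black lines the median of genes of like count, and the dotted line marks counting error alone. Qtrt1 and Qtrt2 stand above their black lines in both groups, and Qng1 and Trdmt1 below.

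Over the 6 libraries, the protein-coding genes whose log2(CPM + 1) followed that of Trdmt1 most closely, among 5941 genes at 10 CPM or more, were Ivd, Rc3h1, Txndc15, Myo1e and Bcl10, with Pearson's r of 0.993, 0.990, 0.978, 0.976 and 0.974. These are the closest of many genes over only 6 libraries, so a high r follows from how they were chosen. The libraries also differ in depth, and at 22 to 173 counts part of Trdmt1's own pattern is counting error.

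Queuosine pairs with codons that end in C or U, written NAC and NAU, for Asn, Asp, His and Tyr. These codons were counted in the longest coding sequence of each of the 7 genes. Their share was 10.6 per 100 codons in Slc35f2, 12.0 in Qtrt2, 12.9 in Qtrt1, 13.0 in Trdmt1, 14.5 in Qng1, 14.8 in B3gntl1 and 15.5 in Gtdc1, where the median of 19531 protein-coding genes was 13.8. NAU made up 63.0% of them in Trdmt1 (34 of 54) and 20.4% in Qng1 (10 of 49), with exact 95% binomial intervals, if codons are taken as independent draws, of 48.7% to 75.7% and 10.2% to 34.3%. The median gene had 43.1%. Of all these genes 92.7% had a lower share than Trdmt1, and 3.39% a lower share than Qng1. The other five lay between, at 36.5% in Qtrt1, 37.7% in B3gntl1, 41.5% in Slc35f2, 42.0% in Qtrt2 and 53.6% in Gtdc1. By amino acid, Trdmt1 had 10 NAU and 2 NAC for Asn, 11 and 7 for Asp, 6 and 4 for His, and 7 and 7 for Tyr. Its excess of NAU was thus largest for Asn and absent for Tyr. Qng1 had 2 NAU and 8 NAC for Asn, 4 and 15 for Asp, 2 and 4 for His, and 2 and 12 for Tyr.

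To show this contrast, the stretch of 40 codons richest in these codons is given for the 2 genes at the ends, from the GENCODE transcripts, with each such codon in capitals and T standing for U. It spans codons 299 to 338 of Qng1 (chromosome 13, minus strand), with 9 NAC and 3 NAU, and codons 10 to 49 of Trdmt1 (chromosome 2, minus strand), with 4 NAC and 8 NAU.
Qng1: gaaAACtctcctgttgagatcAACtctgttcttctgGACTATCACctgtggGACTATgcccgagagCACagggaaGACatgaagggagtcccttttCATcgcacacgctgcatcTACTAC
Trdmt1: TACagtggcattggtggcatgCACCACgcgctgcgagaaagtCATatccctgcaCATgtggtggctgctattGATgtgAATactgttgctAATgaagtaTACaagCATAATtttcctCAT

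**Figure D5:**
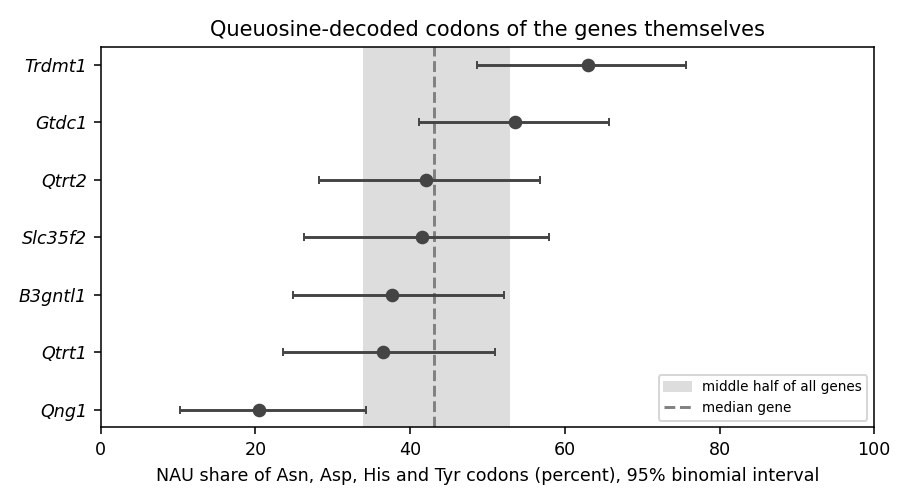
NAU share of the Asn, Asp, His and Tyr codons (percent, with exact 95% binomial intervals) in the coding sequence of the 7 genes, beside the median (dashed) and the middle 50% (grey) of protein-coding genes. Trdmt1 stands at 63.0% and Qng1 at 20.4%, and the other five within or next to the grey band.

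These codon counts describe the sequences. Translation and the tRNAs were not measured in these libraries, and the transcript levels above do not show whether queuine was taken up or inserted.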

How the data were processed

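The deposited table holds expected counts (1 column a library, 6 in all), as the authors made them and not normalized. The submitters' processing notes name FastQC, STAR and RSEM, on mm39 (GRCm39); RSEM divides ambiguous reads between genes. The sources used here give no versions, annotation release or strandedness. Identifiers were matched without version to GENCODE vM39 on the same build; 56630 of 57132 matched. Groups came from sample titles, and 0 columns were left unused. Total counts are given with the results.

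Counts were rounded and tested with edgeR 4.0.16 in R 4.3.3 (filterByExpr, TMM, robust glmQLFit, glmQLFTest, Benjamini-Hochberg, threshold 0.05), fitted on all genes. SE is the log2 fold change over the root of F. The steps were tested on simulated data. Alternatives were DESeq2 1.42.0, limma-voom (limma 3.58.1), library totals, no filter, thinning of 100Q replicate 3, a fit with the replicate number as block, and fits without each library. The genes, lists and tests were chosen with earlier results of these data known. Named in each related list are the 2 genes with the smallest p and the one with the highest CPM. No 2 libraries were copies (chi-square per gene 8.72 to 19.5).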

Additional observations from a re-analysis of the deposited data

How the results depend on the processing

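The number of genes that passed was 0 in the 6 settings that kept all libraries, and over omitted libraries it ranged from 0 to 2, with Gvin2 and Gm46542 passing without 0Q replicate 1 and Gm2446 without 0Q replicate 2 (named after their values were seen). In no setting did a gene of the pathway pass, with adjusted p between 0.837 and 1, and Slc35f2 without counts could not be fitted. Over the 72 alternative estimates of the 6 genes, 8 had the other sign, all for Qtrt1 and B3gntl1. B3gntl1, at -0.01, was 0.03 with library totals alone and 0.00 (just above 0) without a filter on low counts, and ranged from -0.37 to 0.16 over omitted libraries. Qtrt1, at 0.21, ranged from -0.24 to 0.75. With limma-voom, Gtdc1 was -0.25 in place of -0.86 and Qtrt1 0.42 in place of 0.21. The median of the tRNA cytosine methyltransferase list, at 0.18, ranged from -0.07 to 0.28. With the longest transcript as length the levels were 3.34 for Qtrt1, 0.895 for Gtdc1 and 1.13 for B3gntl1 in place of 2.17, 0.291 and 0.532, since their merged exons are longer than any 1 transcript. NAU shares over all coding sequences stayed within the intervals given. In the fit with a replicate block, 0 genes passed, and the log2 fold changes were 0.32 for Qtrt1, -0.95 for Qtrt2, 0.32 for Qng1, -0.56 for Gtdc1, -0.06 for B3gntl1 and 0.58 for Trdmt1. Same-numbered libraries had deviations correlated at 0.05, 0.18 and -0.05 over 6256 genes. Differently numbered ones were at -0.21 to 0.21, with the highest value for 100Q replicate 3 and 0Q replicate 1. Deviations from means of 3 libraries cannot tell whether same-numbered cultures had a common origin, and that was not tested otherwise. Depth limits all of these values: the tested genes of the pathway had 3 to 173 counts in a library.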
